A study of Mus musculus with 7 samples.

Results

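The interleukin 6 (IL6) family was followed in EMT6 mouse mammary tumors as 10 genes, namely 6 ligands (Il6, Il11, Lif, Osm, Ctf1 and Clcf1) and 4 receptor chains (Il6st, Il6ra, Osmr and Lifr). They were taken by name from the 53465 genes of the count table, and all 10 were among the 15645 genes that passed the filter on low counts. The members were chosen by name and by no threshold, but with the expression values of these same 7 libraries already known, so their levels and fold changes are given as a description. EMT6 is a mammary carcinoma line that responds to antibodies against the checkpoint ligand PD-L1. For each tumor 500000 EMT6 cells were placed in the mammary fat pad of a Balb/c mouse, which per the methods was female and 6 to 8 weeks old. EMT6-P stands for 3 primary tumors under isotype (IgG) control antibody. EMT6-PTR, which the labels write PDR, stands for 3 primary tumors under αPD-L1 that grew despite treatment, and the last library is 1 EMT6-PTR metastasis. Antibody was given from day 1 after implantation at 250 μg per mouse every 3 days until the institutional endpoint. The labels name no transgene or deletion, and the implanted line, the host strain and the antibody schedule are shared. The labels call the metastasis breast tumor tissue and do not give its site or tie it to one of the 3 primary tumors. The study describes its replicates as technical unless stated otherwise, so p-values here measure the spread between these samples.

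Cytokines of the IL6 family act through receptor complexes that contain the shared signaling chain gp130, the product of Il6st. IL6 first binds IL6RA, on the cell or shed from it, while LIF and oncostatin M bring gp130 together with LIFR or OSMR. The assembled receptor activates JAK kinases and above all the transcription factor STAT3, which induces its own inhibitor SOCS3 and, in inflamed tissue, acute phase genes. In tumors these cytokines are made by carcinoma cells, fibroblasts and myeloid cells, and gp130 is present on nearly all cell types. Some members lie near each other in GRCm38 (GENCODE M21 positions). Osm (chr11:4236420-4241026) and Lif (chr11:4257557-4272514) are neighbours on the plus strand, and Osmr (chr15:6813577-6874969, minus strand) lies before Lifr (chr15:7090614-7197489, plus strand). Il6 is at chr5:30013114-30019981, Il6st at chr13:112464070-112510086 and Clcf1 at chr19:4214238-4223490, all on the plus strand, and Il6ra is at chr3:89864059-89913196 on the minus strand. Chromosome 7 holds Il11 (chr7:4772373-4782859, minus) and Ctf1 (chr7:127712736-127718192, plus).

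Estimated counts per library totalled 20430110 to 25213472. In EMT6-PTR replicate 2 the single gene CT010467.1 took 13.8% of them, against 0.433% to 1.35% in the other libraries. Expression is given as CPM (counts per 1e6 counts of a library) after upper-quartile scaling, and a log2 difference of 1 is a 2-fold difference. Marker genes of other cell types differed between libraries. In EMT6-PTR replicate 3 the summed level of fibroblast markers was 20923 CPM, against 5712 to 9207 CPM in the other 5 primary tumors. Of the 7 genes 4 were at least 2-fold above the EMT6-P mean there, Col3a1, Dcn, Lum and Pdgfra. Col1a1 at 2755 CPM was inside the range of the other tumors, and Pdpn at 39.3 CPM was below it. The sum of epithelial markers was 611 CPM in that tumor, against 2378 to 2728 CPM. Of these 6 genes 5 were at least 2-fold below the EMT6-P mean, and Epcam was not. In the metastasis all 6 lung markers were at least 2-fold above the EMT6-PTR mean, with a sum of 8227 CPM against 3.19 to 26.1 CPM in EMT6-PTR and 1.45 to 2.92 CPM in EMT6-P. All 8 neutrophil markers were also at least 2-fold above that mean, with a sum of 2715 CPM against 34.3 to 47.0 CPM in EMT6-PTR and 25.1 to 59.9 CPM in EMT6-P. Endothelial markers summed to 858 CPM in the metastasis against 121 to 163 CPM in EMT6-PTR. Of the 6 genes 5 were at least 2-fold above the EMT6-PTR mean, and Emcn was lower, at 8.51 CPM against 15.7 to 21.2 CPM. General leukocyte markers summed to 722 CPM against 330 to 607 CPM. Macrophage markers were at 1373 CPM there and at 1496 to 1812 CPM in EMT6-PTR. T cell markers summed to 30.7 CPM against 4.45 to 17.4 CPM in EMT6-PTR, and B cell markers to 20.7 CPM against 1.00 to 8.24 CPM. Mast cell markers summed to 3.20 CPM against 0.430 to 0.960 CPM in EMT6-PTR and 0.292 to 3.16 CPM in EMT6-P. Of these 4 mast cell genes only 1 was at least 2-fold above the EMT6-PTR mean, Mcpt4 at 2.56 CPM. Liver-expressed markers summed to 229 CPM against 39.3 to 121 CPM in EMT6-PTR, with Alb, Ttr and Fgb at 0 counts. Nearly all of this sum was Tf, at 228 CPM in the metastasis and 39.3 to 120 CPM in EMT6-PTR. Adipocyte markers summed to 14.7 CPM against 20.4 to 30.2 CPM, with Adipoq, Plin1 and Lep at 0 counts in the metastasis. Most of this sum was Fabp4, at 14.5 CPM in the metastasis and 19.3 to 30.1 CPM in EMT6-PTR. Adipoq, Plin1 and Lep were low in EMT6-PTR too, at 0 to 1.62 CPM. Skeletal muscle markers were at 2.04 CPM in the metastasis and at 3323, 7.91 and 3.52 CPM in EMT6-PTR replicates 1 to 3. In EMT6-P replicates 1 to 3 they were at 584, 9.02 and 328 CPM. In the metastasis fibroblast markers summed to 13203 CPM and epithelial markers to 1182 CPM, both sums within the EMT6-PTR range, but single genes moved both ways. Of the 6 epithelial markers 2 were at least 2-fold above the EMT6-PTR mean, Cdh1 (log2 difference 4.36) and Epcam (2.76). Krt14 (-2.01), Krt8 (-0.61), Krt18 (-0.13) and Krt5 (-0.13) were below it. Of the 7 fibroblast markers 4 were at least 2-fold above that mean, and Lum (-1.33), Col1a1 (-0.50) and Col1a2 (-0.14) were below it.

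Among the 10 genes Lif had the highest level per length in the EMT6-P tumors and Il6 the lowest. Dividing CPM by the length of all exons of a gene in kilobases (kb) gave 13.1 ± 1.46 CPM per kb (SD, n = 3) for Lif and 0.458 ± 0.0791 CPM per kb (SD, n = 3) for Il6. Between them, in falling order, mean levels in CPM per kb were 6.50 for the shared chain Il6st, 6.21 for Clcf1, 3.59 for Ctf1, 3.53 for Osmr, 2.75 for Il6ra, 2.14 for Il11, 2.06 for Osm and 0.863 for Lifr. The 3 EMT6-P values overlapped between the neighbours Il6st and Clcf1, Ctf1 and Osmr, Il11 and Osm, and Osm and Lifr, and these pairs had no fixed order. In the EMT6-PTR tumors the values of Il6st and Clcf1 were, in the order of that group, the sole neighbours that did not overlap. In the metastasis the order began with Osm at 52.5, Il6 at 39.2, Lif at 28.2 and Il6st at 24.0 CPM per kb, so that Il6 stood second there and last of 10 in both groups of primary tumors.

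**Figure D1:**
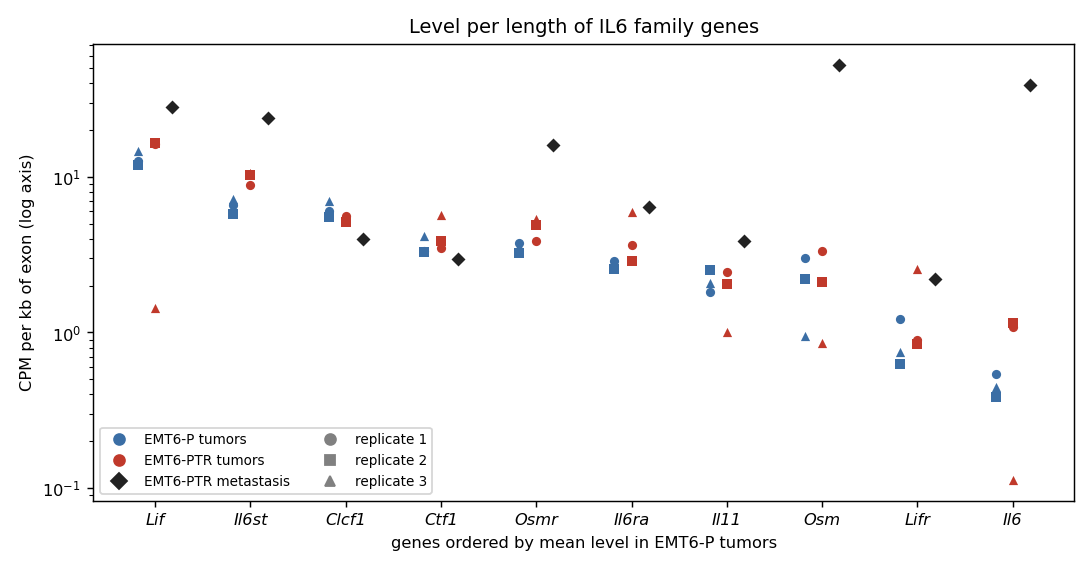
Levels per length of the 10 IL6 family genes, as CPM per kb of exon on a log axis, for 3 EMT6-P tumors (blue), 3 EMT6-PTR tumors (red, marker shape by replicate) and 1 metastasis (black). Genes run from the highest to the lowest mean in EMT6-P, and the metastasis stands furthest above the tumors for Il6 and Osm.

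The proximal promoters are shown for Il6 and Lif, 2 ligands with EMT6-PTR values on both sides of the control tumors, and for the 2 receptor chains whose groups of primary tumors did not overlap, Il6st and Osmr. Each sequence is the 250 bases before a RefSeq transcription start in GRCm38.p6, written 5′ to 3′ on the strand of the gene, and capitals mark matches to the motifs searched. Il6 lies at chr5:30012864-30013113 (plus strand), Lif at chr11:4257318-4257567 (plus), Il6st at chr13:112463820-112464069 (plus) and Osmr at chr15:6874314-6874563 (minus).
Il6: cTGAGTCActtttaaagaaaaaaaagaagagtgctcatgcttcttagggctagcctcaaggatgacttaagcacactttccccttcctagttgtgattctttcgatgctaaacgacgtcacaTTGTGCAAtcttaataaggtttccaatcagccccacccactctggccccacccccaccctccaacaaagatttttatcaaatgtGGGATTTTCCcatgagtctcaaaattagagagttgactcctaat
Lif: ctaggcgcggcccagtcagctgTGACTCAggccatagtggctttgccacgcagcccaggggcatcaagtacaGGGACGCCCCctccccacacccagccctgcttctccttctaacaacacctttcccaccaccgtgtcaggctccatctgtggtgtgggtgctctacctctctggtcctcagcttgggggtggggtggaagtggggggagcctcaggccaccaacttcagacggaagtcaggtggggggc
Il6st: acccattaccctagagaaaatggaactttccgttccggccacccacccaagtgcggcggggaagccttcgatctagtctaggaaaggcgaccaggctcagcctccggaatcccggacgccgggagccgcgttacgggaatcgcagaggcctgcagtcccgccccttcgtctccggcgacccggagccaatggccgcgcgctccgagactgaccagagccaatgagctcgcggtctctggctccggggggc
Osmr: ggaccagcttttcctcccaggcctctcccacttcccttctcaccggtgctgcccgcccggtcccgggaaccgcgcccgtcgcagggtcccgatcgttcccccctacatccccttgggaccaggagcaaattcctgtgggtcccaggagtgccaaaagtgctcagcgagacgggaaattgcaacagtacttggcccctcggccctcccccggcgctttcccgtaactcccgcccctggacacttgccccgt

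The motifs were searched on both strands. They were the STAT element TTCNNNGAA, which 7.02% of 32851 such windows in the genome held, the AP-1 element TGANTCA (6.75%), the C/EBP element TTNNGNAA (36.8%) and the kappaB element (7.25%). The Il6 window held 1 match each to AP-1, C/EBP and kappaB, the last of them, GGGATTTTCC, at 44 to 35 bases before the start. The Lif window held a match to AP-1 and a match to kappaB, GGGACGCCCC, at 178 to 169 bases before the start. No window of the 8 genes with a promoter entry held the STAT letters, and the Il6st and Osmr windows held none of the 4 motifs. Of the other genes, Il11 had an AP-1 match before 1 of its 2 starts and Il6ra had 2 C/EBP matches. A match describes letters in the window and no binding was measured. Osm and Clcf1 were not matched.

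Setting EMT6-PTR beside EMT6-P asks which transcripts differ in tumors that grew despite αPD-L1. Receptor chains were higher in EMT6-PTR by 0.41 to 0.74 on the log2 scale, while the ligands were split. None of the 10 genes passed an adjusted p of 0.05 in edgeR's quasi-likelihood test, and neither did any of the 15645 genes tested (0.0%). At an unadjusted p under 0.05 stood 1786 genes, 5.84% of those tested higher and 5.57% lower in EMT6-PTR, and 2 members, Il6st and Osmr, both higher. DESeq2 called 281 genes including Il6st, and limma-voom called 0. The members' median log2 fold change was 0.34, that of the ligands -0.089 and that of the receptor chains 0.61, beside 0.025 over all tested genes. Without EMT6-PTR replicate 3 the median was 0.20 for the ligands, which turns its sign, and 0.28 for the receptor chains. Fold changes were above 0 for 7 of the 10 genes, where 52.3% of all genes were above 0. No member had a fitted change of 2-fold in either direction, which 6.27% of all genes reached upwards and 1.29% downwards.

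Il6st, the shared signal-transducing chain, was at 72.9, 63.6 and 79.9 CPM in EMT6-P replicates 1 to 3 and at 98.6, 114 and 118 CPM in EMT6-PTR replicates 1 to 3. Every EMT6-PTR tumor lay above every EMT6-P tumor. The log2 fold change was 0.61 (SE 0.15, edgeR adjusted p = 0.421), and with DESeq2 it was 0.63 with an adjusted p of 0.0229. Transcripts are summed over all cells of the tumor, so more cells of a type and more RNA per cell cannot be told apart, here and below.

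Osmr, the chain that binds oncostatin M together with gp130, was at 45.3, 39.1 and 43.7 CPM in EMT6-P and at 46.6, 59.4 and 64.6 CPM in EMT6-PTR. The groups did not overlap, although EMT6-PTR replicate 1 was close to the highest control tumor. The log2 fold change was 0.41 (SE 0.16, edgeR adjusted p = 0.433). Il6st and Osmr were the 2 members with groups apart, both higher in EMT6-PTR, as 9.52% of all tested genes were. No member had every EMT6-PTR tumor below every control tumor, as 11.8% of all genes did.

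Il6ra, the chain that gives IL6 its specificity, was at 25.1, 22.1 and 24.1 CPM in EMT6-P and at 31.7, 25.0 and 51.2 CPM in EMT6-PTR. EMT6-PTR replicate 3 stood well above the others, and replicate 2 fell just inside the control range. The log2 fold change was 0.60 (SE 0.27, edgeR adjusted p = 0.451), and without EMT6-PTR replicate 3 it was 0.26. Lifr, the signaling partner of gp130 for LIF and cardiotrophin 1, was at 13.2, 6.73 and 8.02 CPM in EMT6-P and at 9.64, 9.08 and 27.7 CPM in EMT6-PTR. It was high in EMT6-PTR replicate 3 alone, and the other 2 EMT6-PTR tumors lay inside the control range. Its log2 fold change of 0.74 (SE 0.51, edgeR adjusted p = 0.573) was 0.0081 without that replicate.

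Il6, the cytokine that names the family and acts on leukocytes and tumor cells alike, was at 1.32, 0.934 and 1.08 CPM in EMT6-P and at 2.62, 2.78 and 0.274 CPM in EMT6-PTR. These values rest on few reads, with 27, 20 and 23 counts in EMT6-P and 60, 50 and 7 counts in EMT6-PTR. EMT6-PTR replicates 1 and 2 were above all control tumors, by 1.18 and 1.27 on the log2 scale relative to the EMT6-P mean, and replicate 3 was below all of them, by -1.71. The log2 fold change was 0.76 (SE 0.77, edgeR adjusted p = 0.693). It was 0.43 without EMT6-PTR replicate 1, 0.38 without replicate 2 and 1.28 without replicate 3, the last with an edgeR adjusted p of 0.129. With limma-voom it was 0.12.

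Lif, which sustains stem cells and acts through LIFR and gp130, was at 55.2, 51.6 and 63.9 CPM in EMT6-P and at 70.6, 71.7 and 6.21 CPM in EMT6-PTR. EMT6-PTR replicates 1 and 2 lay above all control tumors and replicate 3 far below all. The mean of EMT6-P was 9.16-fold the value of EMT6-PTR replicate 3. The log2 fold change was -0.20 (SE 0.76, edgeR adjusted p = 0.929) with all tumors and 0.32 without that replicate.

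Osm, oncostatin M, which is made largely by myeloid cells, was at 6.82, 5.05 and 2.17 CPM in EMT6-P and at 7.55, 4.79 and 1.95 CPM in EMT6-PTR. Both groups covered nearly the same range, with a log2 fold change of 0.025 (SE 0.60, edgeR adjusted p = 0.988). Il11, which signals through its own alpha chain and gp130 and is known for its action on stromal cells, was at 3.80, 5.23 and 4.34 CPM in EMT6-P and at 5.11, 4.29 and 2.11 CPM in EMT6-PTR. EMT6-PTR replicate 3 had the lowest value of the 6 tumors for both. The log2 fold change of Il11 was -0.22 (SE 0.38, edgeR adjusted p = 0.828), and it was 0.076 without that replicate.

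Ctf1, cardiotrophin 1, ranged from 5.98 to 7.59 CPM in EMT6-P and from 6.37 to 10.4 CPM in EMT6-PTR, with a log2 fold change of 0.27 (SE 0.27, edgeR adjusted p = 0.681) that was 0.028 without EMT6-PTR replicate 3. Clcf1, a ligand that acts through LIFR and gp130, ranged from 21.1 to 26.7 CPM in EMT6-P and from 19.5 to 21.2 CPM in EMT6-PTR, with a log2 fold change of -0.20 (SE 0.15, edgeR adjusted p = 0.587). The groups overlapped for both ligands. The GENCODE M21 model of Clcf1 shares exons on its strand with AC109138.7, so its counts may hold reads of both.

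**Figure D2:**
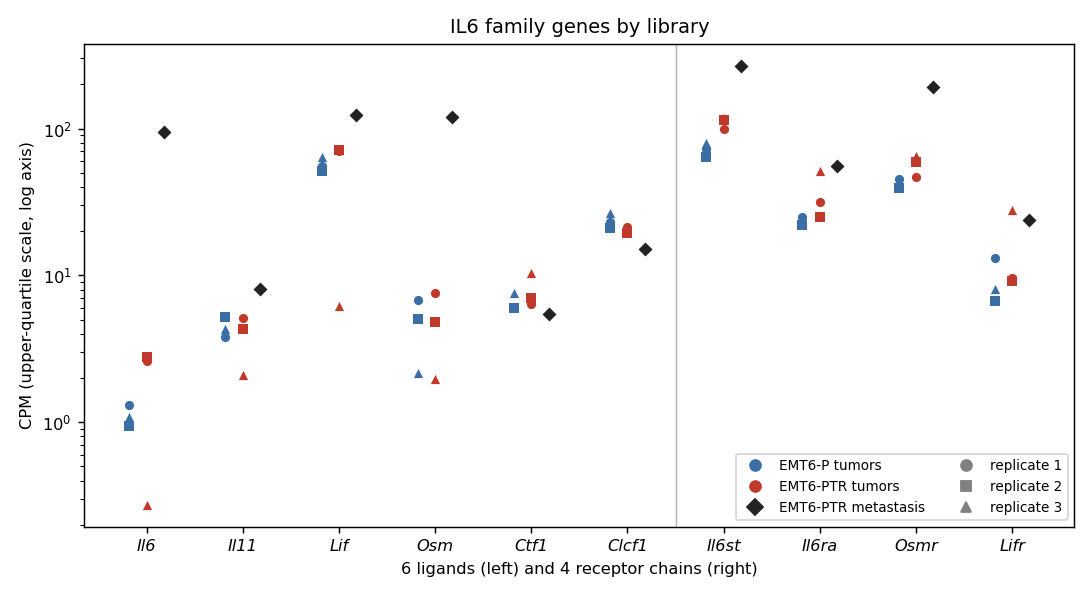
CPM on the upper-quartile scale (log axis) of the 6 ligands (left) and 4 receptor chains (right) in 3 EMT6-P tumors (blue), 3 EMT6-PTR tumors (red, marker shape by replicate) and 1 metastasis (black). Lif and Il6 have 2 EMT6-PTR tumors above and 1 below all control tumors, and Il6st and Osmr have all 3 above.

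Read tumor by tumor, EMT6-PTR replicate 3 had the lowest value of the 6 primary tumors for 4 of the 10 genes and the highest for 5. The 4 lowest were ligands, Il6, Il11, Lif and Osm. The 5 highest were all 4 receptor chains and the ligand Ctf1. Clcf1, at 20.9 CPM, was neither, so the 6 ligands did not move as 1 group. Among all tested genes 34.5% had their lowest and 32.7% their highest value in that tumor. At least 2-fold below the EMT6-P mean were the same 4 ligands, by -1.71 for Il6, -1.04 for Il11, -3.17 for Lif and -1.08 for Osm on the log2 scale, beside 13.6% of all genes. At least 2-fold above were Il6ra, by 1.11, and Lifr, by 1.63, beside 11.8% of all genes. Il6st was 0.71 and Osmr 0.60 above the EMT6-P mean. The same tumor had the high fibroblast and low epithelial marker sums given above, and their part in these values was not tested.

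In EMT6-PTR replicates 1 and 2, Il6 was the sole member at least 2-fold above the EMT6-P mean, beside 3.75% and 5.21% of all genes, and no member was 2-fold below it, beside 1.74% and 3.65%. The SD of log2 CPM was larger within EMT6-PTR than within EMT6-P for 8 of the 10 genes, close to the 83.0% of all tested genes for which it was. Ratios of ligand to receptor level per length are quotients of the values already given, so they restate these values and add no separate observation. Lif over Lifr was 10.4 to 19.7 in EMT6-P, 18.1 and 19.6 in EMT6-PTR replicates 1 and 2, and 0.555 in replicate 3. Il6 over Il6ra was 0.151 to 0.187 in EMT6-P, 0.294 and 0.397 in EMT6-PTR replicates 1 and 2, and 0.0190 in replicate 3. Osm over Osmr overlapped between the groups, at 0.265 to 0.803 in EMT6-P and 0.863, 0.430 and 0.161 in EMT6-PTR replicates 1 to 3.

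**Figure D3:**
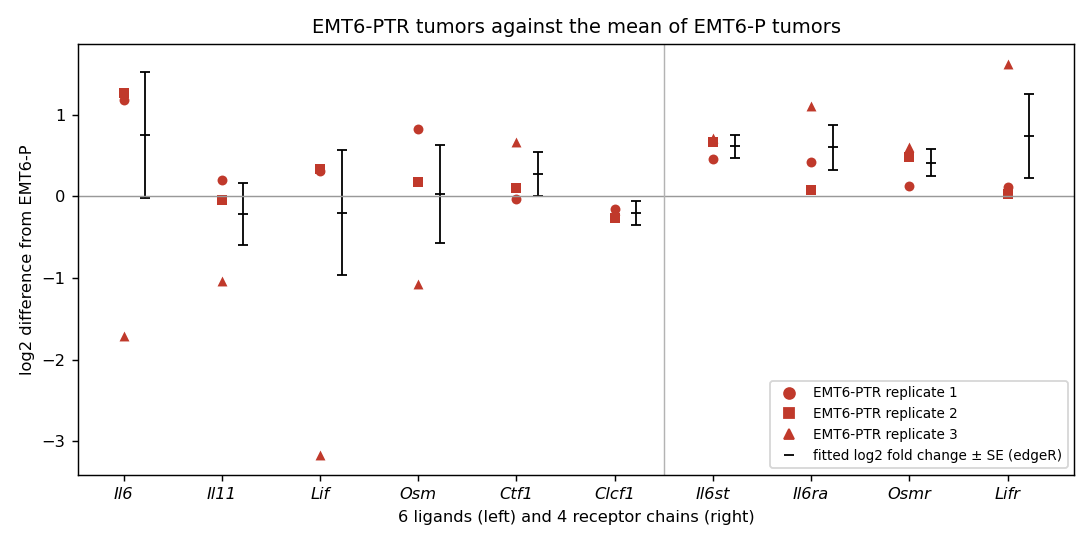
Log2 CPM of each EMT6-PTR tumor minus the mean of 3 EMT6-P tumors for the 10 genes (red, marker shape by replicate), with the fitted log2 fold change and its SE from edgeR (black). Replicate 3 is lowest for Il6, Il11, Lif and Osm and highest for Ctf1 and the 4 receptor chains. Replicates 1 and 2 lie close together for most genes.

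The metastasis sets a resistant tumor away from its primary site beside EMT6-PTR primary tumors, and as a single library it allows no test. Its lung, neutrophil and endothelial marker sums were high, so tumor cells and host tissue cannot be told apart in this library. In it Il6 and Osm were far above every primary tumor, Lif, Il11, Il6st, Il6ra and Osmr were above every primary tumor by smaller factors, and Ctf1 and Clcf1 were below the 3 EMT6-PTR tumors. At least 2-fold above the EMT6-PTR mean of log2 CPM were 6 of the 10 genes, Il6, Osm, Lif, Osmr, Il6st and Il11, beside 12.4% of all tested genes. No member was 2-fold lower, beside 8.58%. Above all 3 EMT6-PTR tumors were 7 of 10, beside 25.8% of all genes, and the same 7 were above all 6 primary tumors, beside 20.9%, and below all 3 EMT6-PTR tumors were 2 of 10, beside 29.0%. The members' median log2 difference was 1.21, beside -0.016 over all tested genes.

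Il6 was at 95.2 CPM (2382 counts) in the metastasis. This was 50.3-fold the mean CPM and 34.2-fold the highest CPM of the EMT6-PTR tumors given above. The log2 differences here and below are from the EMT6-PTR mean of log2 CPM, so they are not the log2 of these folds. For Il6 the log2 difference was 6.07, which ranked 30 among 15645 genes. Osm was at 119 CPM, 25.0-fold the EMT6-PTR mean CPM and 15.8-fold its highest tumor, with a log2 difference of 4.82 at rank 83. Lif was at 123 CPM with a log2 difference of 1.95 and Il11 at 8.03 CPM with 1.14, both against an EMT6-PTR mean that includes the low replicate 3. Without that replicate these were 0.79 and 0.77, so that neither was 2-fold higher. Ctf1 at 5.44 CPM and Clcf1 at 15.1 CPM had log2 differences of -0.50 and -0.44.

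Among the receptor chains Osmr was at 193 CPM, 3.39-fold the EMT6-PTR mean (log2 difference 1.77), and Il6st at 267 CPM, 2.42-fold that mean (1.28). Both lay above the span of the 6 primary tumors. Il6ra at 55.7 CPM was only slightly above EMT6-PTR replicate 3, and Lifr at 23.9 CPM was inside the EMT6-PTR range. Leaving out EMT6-PTR replicate 3 brought Lifr past the 2-fold mark and made the count 5 of 10 genes, namely Il6, Osm, Il6st, Osmr and Lifr. On the scale of level per length, Il6 over Il6ra was 6.09 and Osm over Osmr 3.30 in the metastasis, above every primary tumor, while Lif over Lifr was 12.7. These ligand values stand beside the 63.8-fold higher summed neutrophil markers, the lung markers and the 6.05-fold higher summed endothelial markers of the same library. The part of these markers in the ligand values was not tested.

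The other genes of the pathway were listed in 5 groups of 39 genes in all, namely family relatives, signal transducers, feedback inhibitors, genes for receptor shedding and STAT3 targets, and 35 of them were tested. Of the 12 tested STAT3 targets, 11 were at least 2-fold higher in the metastasis than the EMT6-PTR mean of log2 CPM, and Myc, with a log2 difference of -0.25, was not, beside 12.4% of all tested genes that were. The acute phase gene Saa3 was at 335 CPM against 5.11, 33.1 and 24.7 CPM in EMT6-PTR replicates 1 to 3, and Lcn2, the iron-binding lipocalin of neutrophils and inflamed epithelium, at 1111 CPM against 21.8, 382 and 76.1 CPM. Both were above each primary tumor, though Lcn2 also differed widely between the EMT6-PTR tumors. Of 6 feedback inhibitors 3 were 2-fold higher, Cish, Socs3 and Socs2. Cish was at 93.5 CPM against 3.58 to 5.79 CPM, Socs3, the inhibitor that binds gp130, at 606 CPM against 42.1 to 94.0 CPM, and Socs2 at 58.9 CPM against 7.55 to 28.0 CPM. None of 8 signal transducers was 2-fold higher. Stat3 was closest with a log2 difference of 0.93, at 407 CPM against 186 to 269 CPM. Of 6 tested family relatives Ebi3, a subunit of IL27, was 2-fold higher, and none of 3 genes for receptor shedding was. The sums of neutrophil, lung and endothelial markers were higher in this same library, and their part in these values was not tested either.

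**Figure D4:**
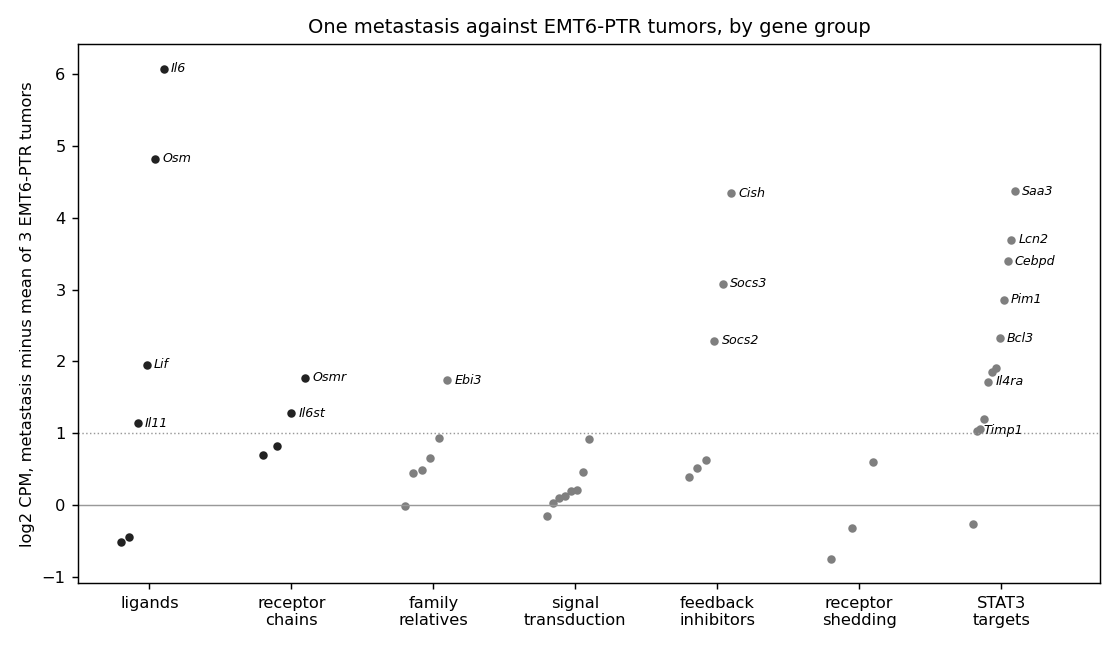
Log2 CPM of the single metastasis minus the mean of 3 EMT6-PTR tumors, 1 point per gene, for ligands, receptor chains and 5 groups of other pathway genes. The dotted line marks a log2 difference of 1, names are printed above it where space allows, and 11 of 12 STAT3 targets, 4 of 6 ligands and 2 of 4 receptor chains reach it.

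Between EMT6-PTR and EMT6-P the same 35 pathway genes held no call in edgeR, DESeq2 or limma-voom, and 0 of them had an unadjusted edgeR p under 0.05. Their fold changes were above 0 for 18 and below 0 for 17, with a median of 0.045, close to that of all genes. Il11ra1, the alpha chain for IL11, was at 14.2, 15.1 and 15.2 CPM in EMT6-P and at 15.6, 15.4 and 64.2 CPM in EMT6-PTR. Its groups did not overlap, but only EMT6-PTR replicate 3 was far from the controls, and the log2 fold change was 1.10 (SE 0.58, edgeR adjusted p = 0.489). Stat3 was at 169, 175 and 164 CPM in EMT6-P and at 186, 196 and 269 CPM in EMT6-PTR, with groups apart (0.36, SE 0.18, edgeR adjusted p = 0.470). Stat5a, which carries other cytokine signals, likewise had groups apart, from 16.9 to 19.6 CPM and from 19.7 to 32.5 CPM (0.38, SE 0.23, edgeR adjusted p = 0.524). Of the 35 genes 4 had groups apart with EMT6-PTR higher, Il11ra1, Stat3, Stat5a and the JAK kinase gene Tyk2, a share near the 9.52% of all tested genes.

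Among the inhibitors, the log2 fold change was 0.54 for Cish (SE 0.36, edgeR adjusted p = 0.560) and 0.70 for Socs2 (SE 0.53, edgeR adjusted p = 0.602). Of the shedding genes, the protease gene Adam10 was at 0.28 (SE 0.21, edgeR adjusted p = 0.586) and Rhbdf2, a trafficking factor of ADAM17, at -0.47 (SE 0.38, edgeR adjusted p = 0.620). Saa3 was at 1.37 (SE 0.65, edgeR adjusted p = 0.468) and Lcn2 at 2.00 (SE 1.08, edgeR adjusted p = 0.495), with EMT6-PTR replicate 1 below all control tumors for Saa3. For Lcn2 EMT6-PTR replicates 1 and 3 were inside the control range of 17.5 to 78.3 CPM, and replicate 2 alone was above it. Of 4 relatives below the filter, Il31 had 0 counts in all 7 libraries, which allows up to 3 counts in each, and Il31ra had at most 1 count. Ctf2 had 1 to 7.07 estimated counts and Cntfr 2 to 38, the most in the metastasis.

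The genes whose pattern over the 7 libraries was most like a member were found by the root-mean-square difference of log2 CPM after each gene's mean was removed, a description with no test. For Il6 these were Cass4 (0.55), Nkd1 (0.57) and Serpina3f (0.59). For Osm they were the membrane protease gene St14 (0.29), Ripor2 (0.36) and Adamtsl2 (0.42). For Il6st they were Gm20186, Rin3 and Sh3bp5, each at 0.15. The single metastasis carries most of the span of Il6 and Osm. Cass4, for example, was at 68.3 CPM in the metastasis and at 0.469 to 2.57 CPM in the primary tumors.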

How the data were processed

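RNA of 7 libraries was measured by stranded polyadenylated RNA sequencing. The deposited values are expected counts per gene, which the authors made by aligning reads to GRCm38 with STAR 2.6.0a and estimating counts with RSEM 1.3.1 on GENCODE M16, after FastQC 0.11.5. RSEM divides reads that fit several genes by estimation. Totals were 20430110 to 25213472. A count of 0 allows up to 3 counts (counting error only).

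Identifiers were matched to GENCODE M21, with 53274 of 53465 named. Counts were rounded, filtered with filterByExpr and scaled to the upper quartile. The test was that of edgeR 4.0.16 in R 4.3.3 (glmQLFit, glmQLFTest, Benjamini-Hochberg over 15645 genes, threshold 0.05), and SE is the fold change over the root of F. Log2 CPM uses a prior count of 2. DESeq2 1.42.0, limma-voom (limma 3.58.1), other filters and scalings, a replicate block and leaving out tumors were alternatives. The fits were run on simulated data with planted changes larger than any member's fitted change. Recovery of changes as small as those of the members was not tested. Promoter sequences are from RefSeq, and 8 of 10 members matched. Members, gene lists and marker lists were chosen with earlier results of these data known. Named genes are the members, the 2 genes of each pathway group with the smallest p, and the 3 genes most like Il6, Osm and Il6st, and 1 gene under this rule is not reported here. Other names, Socs3, Myc, Ebi3, Tyk2, the 4 untested relatives, CT010467.1 and all single marker genes, were added after their values were seen. Python 3.11.15, pandas 2.3.3 and matplotlib 3.10.9 made tables and plots.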

Additional observations from a re-analysis of the deposited data

How the results depend on the processing

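Of 129 recomputed log2 fold changes of single members, 122 kept their direction and side of the threshold. DESeq2 with its own size factors called 281 genes, 138 higher and 143 lower, and 1 member, Il6st, where edgeR called 0. The other alternatives, TMM scaling, limma-voom, both other filters, the metastasis as an added group, the replicate block and leaving out each tumor, called 0 genes and 0 members. The members' median log2 fold change was 0.19 with limma-voom and 0.28 to 0.43 over leaving out each tumor. For Il6 the log2 fold change was 0.38 to 1.28 over leaving out each tumor, 0.36 with the replicate block and 0.12 with limma-voom, against 0.76. Direction reversed for Osm, to -0.056 with limma-voom, -0.024 with the replicate block, -0.32 when EMT6-P replicate 3 was left out and -0.48 when EMT6-PTR replicate 1 was, within a range of -0.48 to 0.40 over leaving out each tumor. It reversed without EMT6-PTR replicate 3 for Il11, to 0.076 in a range of -0.49 to 0.076, and for Lif, to 0.32 in a range of -0.56 to 0.32. Same-numbered tumors correlated at 0.259, 0.252 and 0.039 in their deviations from the group means, and differently numbered ones at -0.285 to 0.097. The first 2 values were thus above all others, and this check does not settle whether the numbers are pairs. The main fit did not take them as pairs. With the replicate block, edgeR had 1268 genes at an unadjusted p under 0.05 in place of 1786. Over leaving out each EMT6-PTR tumor, the log2 difference of the metastasis was 5.09 to 6.58 for Il6, 4.29 to 5.24 for Osm, 0.79 to 2.54 for Lif and 0.77 to 1.39 for Il11. Il6 did not pass a filter of 10 counts in every sample, and its low counts limit its precision in primary tumors.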
